A study of Mus musculus with 35 samples.

Results

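The 10 genes described here encode the coat proteins of lipid droplets and the enzymes that make and break down the neutral lipids stored in them: *Plin2*, *Plin3*, *Cidea*, *Cideb*, *Cidec*, *Hilpda*, *Soat1*, *Dgat1*, *Dgat2* and *Pnpla2*. They were chosen by symbol, for their known roles, from the 54735 symbols of the count files. All 10 were found, and all 10 were among the 13421 genes with more than 1 CPM (a count scaled to the total counts of its library) in at least 5 libraries.

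A lipid droplet is a core of triglyceride and cholesteryl ester under a single layer of phospholipid that carries coat proteins. DGAT enzymes complete triglyceride synthesis and SOAT1 esterifies cholesterol, while the perilipins shield the core, CIDE proteins fuse droplets into larger ones, and the lipase PNPLA2 (also named ATGL) starts triglyceride hydrolysis, with HILPDA as one of its inhibitors. Kupffer cells (KCs), the resident macs of the liver, and macs recruited from the blood take up and store lipid in the fatty liver.

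Bulk RNA-seq was performed on 35 samples of liver macs purified by flow cytometry from C57Bl/6J mice. Male mice received a standard diet (SD) or a Western diet (WD), rich in fat and cholesterol with fructose and sucrose in the drinking water, from 5 weeks of age, according to the methods. ResKCs, sorted as CLEC4F+TIM4+ cells, came from SD-fed mice (n = 7) and WD-fed mice (n = 5) after 12 weeks, and from SD-fed mice (n = 6) and WD-fed mice (n = 6) after 24 weeks. moKCs, sorted as CLEC4F+TIM4- cells (n = 5), and CLEC4F- macs, which were also TIM4- (n = 6), came from WD-fed mice at 24 weeks, so neither population had an SD control. For the WD ResKCs at 12 weeks the diet field of the labels reads standard diet, but titles and descriptions name the Western diet, which was followed. The labels do not say whether each library came from its own mouse, so p-values measure the spread between these samples.

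The libraries held 11568590 to 15163845 counts, and 3 counts were 0.198 to 0.259 CPM. The sort genes followed the labels in most libraries. Mean *Timd4* was 732 to 1094 CPM in the 4 ResKC groups but 12.5 CPM in moKCs and 8.24 CPM in their CLEC4F- counterparts, and mean *Clec4f* was 12622 to 15105 CPM in ResKCs and 9844 CPM in moKCs. In CLEC4F- macs *Clec4f* lay between 294 and 5488 CPM, so its mRNA was still present. The 5 Kupffer cell markers together summed to 1378 to 12585 CPM there (median 3805), highest in replicate 4. Hepatocyte mRNA was found in every library. *Alb*, the albumin gene of hepatocytes, had group means of 426 to 666 CPM, and it exceeded 1000 CPM in 4 libraries: replicate 7 of the SD ResKCs at 12 weeks, replicate 3 of the WD ResKCs at 12 weeks and at 24 weeks, and moKC replicate 1. Adipocyte markers were near 0, with *Adipoq* at 0 in all 35 libraries, and the 3 adipocyte markers together reached at most 0.780 CPM. In sorted bulk samples, a change in the share of cells that express a gene and a change in mRNA per cell cannot be told apart.

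The region before the start site is shown for *Plin2* and *Cidec*, a perilipin and a CIDE gene that both rose on the WD at 24 weeks. RefSeq promoter entries were examined for 7 of the 10 genes (9 entries, since *Cidec* and *Hilpda* have 2 starts each). *Dgat1* and *Dgat2* had no entry, and *Cidea* was left out of the search. Each sequence is the 250 bases upstream of the RefSeq start, on the gene's strand, in GRCm38.p6. *Plin2* lies on chromosome 4 (chr4:86648386-86670060, minus strand) and its upstream region is chr4:86670060-86670309. *Cidec* lies on chromosome 6 (chr6:113424634-113435760, minus strand), and the region shown, chr6:113435761-113436010, is upstream of the RefSeq start that coincides with the GENCODE start. The region of its second start, chr6:113434765-113435014, lies within the gene and is not shown. Capitals mark AGGTCA, a core motif of nuclear receptors, read on either strand.
Plin2: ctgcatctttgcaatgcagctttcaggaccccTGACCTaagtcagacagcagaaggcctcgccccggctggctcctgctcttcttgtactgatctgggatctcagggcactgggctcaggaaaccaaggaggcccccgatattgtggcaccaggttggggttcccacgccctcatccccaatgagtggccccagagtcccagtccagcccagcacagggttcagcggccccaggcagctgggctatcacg
Cidec: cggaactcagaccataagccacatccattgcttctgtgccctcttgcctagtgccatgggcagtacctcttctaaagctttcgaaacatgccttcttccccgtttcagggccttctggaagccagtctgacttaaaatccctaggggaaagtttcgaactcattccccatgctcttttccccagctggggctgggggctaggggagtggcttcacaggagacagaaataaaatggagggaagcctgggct
The *Plin2* region held 1 copy of AGGTCA, on the reverse strand, beginning 218 bases before the start. The *Cidec* region shown held none. AGGTCA occurred in 14.0% of the 32851 RefSeq regions of 250 bases, so its presence is common. The AP-1 site TGANTCA (6.75% of all regions), CACGTG (6.02%) and ACGTG (16.6%), which overlaps with CACGTG, were searched on both strands and had no match in the 2 regions shown. The region of the second *Cidec* start held 1 AP-1 site, beginning 96 bases before that start. The region of the second *Hilpda* start held 1 AP-1 site, 128 bases before it, and 1 ACGTG, 43 bases before it, and the first *Hilpda* region held none of the motifs.

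*Plin2*, the main perilipin of macs, was the most abundant member per kilobase of exon. Its mean level in SD ResKCs at 24 weeks was 93.6 CPM per kb, followed by *Pnpla2* (58.4 CPM per kb), *Hilpda* (57.5), *Soat1* (42.9), *Plin3* (15.3), *Dgat1* (4.40) and *Dgat2* (3.04). *Cideb* (0.341 CPM per kb), *Cidec* (0.0395) and *Cidea* (0) were at the limit of detection in this group. In CLEC4F- macs *Plin2* again had the highest mean (245 CPM per kb), followed by *Soat1* (35.6 CPM per kb), *Pnpla2* (33.0), *Hilpda* (25.0) and *Plin3* (23.8).

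**Figure D1:**
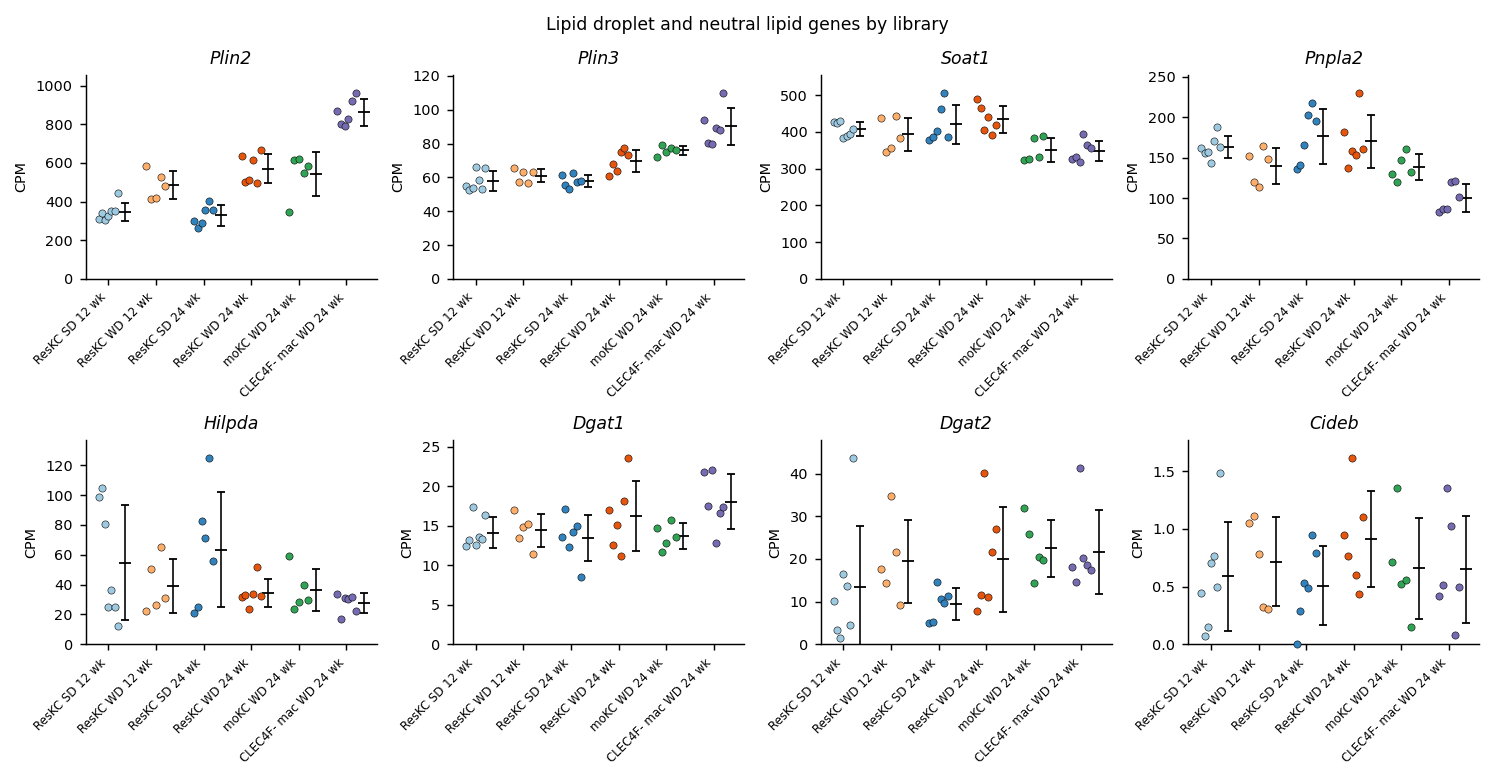
CPM of 8 members (y axis, linear from 0) in each of the 35 libraries, by group (x axis; n = 7, 5, 6, 6, 5 and 6 from left to right). Points are libraries and black bars are mean ± SD, with bars below 0 not drawn. *Plin2* rose from a mean of 329 CPM in SD ResKCs at 24 weeks to 571 CPM in WD ResKCs and 862 CPM in CLEC4F- macs, while *Pnpla2* was lowest in CLEC4F- macs (99.5 CPM).

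To examine how the WD affected these genes in ResKCs, WD and SD ResKCs were compared at 24 weeks. Of the 10 members, 4 rose (*Plin2*, *Plin3*, *Cidea* and *Cidec*), none fell and 6 were not called. Among all genes tested 8.71% were called and 4.84% were called higher. The median log2 fold change of the 10 members was 0.53, against 0.00 over all genes. 3 members (*Plin2*, *Cidea* and *Cidec*) had every WD library above every SD library, as did 2.19% of all genes. *Cidea* and *Cidec* exceeded 1 CPM almost only in WD libraries, so they passed the filter through groups where they were high. Their calls and their lack of overlap are not independent of that filter.

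*Plin2* was at 265, 328 and 404 CPM (lowest, median and highest) in the 6 SD libraries and at 497, 563 and 669 CPM in the 6 WD libraries. The groups did not overlap. *Plin2* mRNA was 1.74-fold higher on the WD (log2 fold change 0.80, SE 0.12, adjusted p = 7.507e-05).

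*Plin3*, a perilipin found in most cell types that coats newly formed droplets, was at 53.3, 57.6 and 62.5 CPM on the SD and at 60.9, 70.5 and 77.1 CPM on the WD. The groups overlapped at the lowest WD library. Its log2 fold change was small (0.26, SE 0.07, adjusted p = 0.0246), and the call was lost when SD replicate 2 or 3 or WD replicate 4, 5 or 6 was left out (adjusted p = 0.0525 to 0.0605). The headers of the count files name the alignments in 2 ways, which the sources do not explain. The *Plin3* call was also lost in 6 of 12 other settings, among them this naming as a covariate (adjusted p = 0.102), the first naming alone (0.307), *Alb* as a covariate (0.0525) and adjustment for immediate-early and heat-shock mRNA (0.198).

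*Cidea* and *Cidec* encode CIDE proteins best known from fat cells and from the fatty liver. *Cidea* had no count in any of the 6 SD libraries and 1.18, 1.52 and 3.07 CPM in the 6 WD libraries (15 to 35 counts). Against the 3 counts per library that a count of 0 allows (0.225 CPM on average), *Cidea* was at least 8.30-fold higher on the WD (adjusted p = 0.0047). *Cidec* was at 0, 0 and 0.361 CPM on the SD, with 6 counts in all, and at 0.789, 3.31 and 6.60 CPM on the WD. Both genes were present in every WD library and absent or nearly absent on the SD. The fitted log2 fold change of *Cidec* was 5.32 (SE 1.21, adjusted p = 0.00577).

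The hepatocyte markers moved in the same direction without passing the test. Their summed level ranged from 419 to 1432 CPM in the SD libraries (median 1249) and from 1016 to 3213 CPM in the WD libraries (median 1574), 0 of 10 were called by edgeR, and their median log2 fold change was 0.76. With *Alb* as a covariate, *Cidea* (adjusted p = 0.00453) and *Cidec* (log2 fold change 4.56, adjusted p = 0.00397) were still called. The covariate fits 1 relation to *Alb* for both diets, so it cannot tell which cells the mRNA came from. Per 1000 CPM of *Alb* at 24 weeks, median *Cidec* was 0 in SD ResKCs and 5.54 in WD ResKCs. It was 6.71 in moKCs and 7.48 in CLEC4F- macs. *Cidea* medians were 0, 3.05, 4.07 and 4.46 in the same order. The share of hepatocyte mRNA in these values was not tested. Immediate-early and heat-shock genes, known to respond to cell isolation, fell on the WD in 7 of 10 cases (median log2 fold change -1.71), with summed levels of 2587 to 13824 CPM on the SD and 1050 to 4945 CPM on the WD. Adjusted for their mean level, *Plin2* (log2 fold change 0.69, adjusted p = 0.00469) and *Cidea* (adjusted p = 0.0311) kept their calls and *Cidec* did not (4.09, adjusted p = 0.0667). The 4 markers of CLEC4F- macs summed to 4.54 to 16.2 CPM on the SD and 9.82 to 53.9 CPM on the WD, 1 of 4 was called higher, and they reached 440 to 1597 CPM in CLEC4F- macs themselves. Endothelial markers had a median log2 fold change of -0.89 (0 of 6 called) and summed to 607 to 1576 CPM on the SD and 404 to 875 CPM on the WD. Stellate cell markers had a median of -0.65 (1 of 6 called lower) and summed to 80.5 to 198 CPM on the SD and 42.1 to 101 CPM on the WD. The part of these cells in the ResKC values was not tested. All SD libraries at 24 weeks shared 1 of the 2 header namings, and 3 of the 6 WD libraries had the other. Within the shared naming, *Plin2* was 0.74 higher on the log2 scale (adjusted p = 0.0149) and *Cidea* (adjusted p = 0.0253) and *Cidec* (adjusted p = 0.0210) were called.

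The other 6 members did not pass the test at 24 weeks. *Dgat2*, which makes triglyceride and is abundant in hepatocytes, was at 4.91, 10.2 and 14.6 CPM on the SD and at 7.84, 16.6 and 40.2 CPM on the WD (log2 fold change 1.08, SE 0.50, adjusted p = 0.172). Its log2 difference was 0.33 with *Alb* as a covariate (adjusted p = 0.520). *Hilpda*, an inhibitor of PNPLA2 that hypoxia and stress induce, was at 21.1, 63.6 and 125 CPM on the SD and at 23.6, 32.7 and 51.7 CPM on the WD (-0.88, SE 0.41, adjusted p = 0.176). Adjusted for immediate-early and heat-shock mRNA the *Hilpda* value was 0.58 (adjusted p = 0.225), opposite in sign and also not called. The intervals of *Soat1* (log2 fold change 0.05, 95% interval -0.11 to 0.21) and *Pnpla2* (-0.05, -0.31 to 0.20) were narrow, those of *Dgat1* (0.27, -0.05 to 0.59) and *Cideb* (0.84, -0.39 to 2.08) wider.

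**Figure D2:**
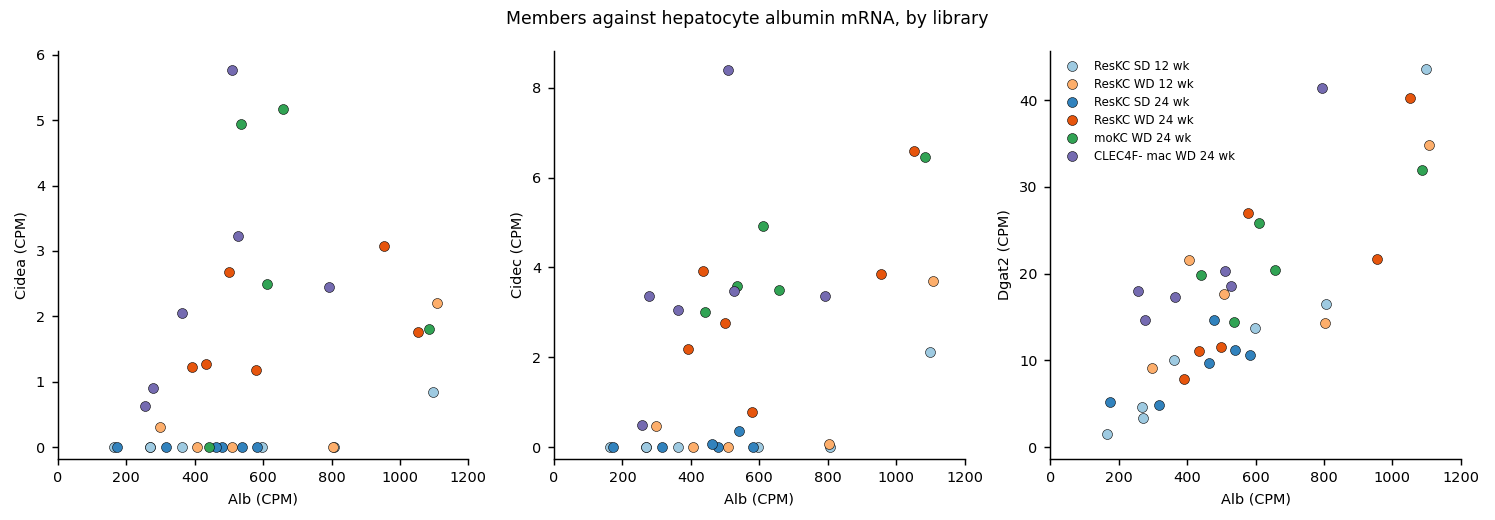
CPM of *Cidea*, *Cidec* and *Dgat2* (y axes) against CPM of *Alb* (x axis) in each of the 35 libraries, coloured by group. Deviations of log2 CPM from the group means correlated with those of *Alb* (r = 0.86 for *Dgat2*, 0.53 for *Cidec* and 0.44 for *Cidea*). For *Cidec* and *Cidea* the relation did not pass within either header naming. At 24 weeks SD ResKCs, with 173 to 582 CPM of *Alb*, were at or near 0 for *Cidea* and *Cidec*, and all WD ResKC libraries were above 0. Which cells this mRNA came from was not tested.

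At 12 weeks the same comparison called no member by edgeR, and *Plin2* alone had an unadjusted p under 0.05. DESeq2 and limma-voom also called none. Over all genes, 0.0373% were called. *Plin2* was at 307, 340.0 and 446 CPM in the 7 SD libraries and at 582, 413, 419, 527 and 481 CPM in the 5 WD libraries (replicates 1 to 5). 6 of the 7 SD libraries lay below all WD libraries, and SD replicate 7 lay among them. The log2 fold change was 0.48 (SE 0.12, adjusted p = 0.128). All 5 WD libraries had the first header naming. Of the SD libraries 3 had the first and 4 the second, replicate 7 among the latter.

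SD replicate 7 decided 2 calls at 12 weeks. It was the SD library with the most *Alb* (1098 CPM), the most *Dgat2* (43.6 CPM, against 1.55 to 16.5 CPM in the others) and the least *Hilpda* (12.4 CPM), and the only one of the 7 with counts of *Cidea* (12 counts) and *Cidec* (30 counts). Without it, *Plin2* was called (log2 fold change 0.55, adjusted p = 0.0213), as was *Cidec* (adjusted p = 0.0456), for which all other SD libraries were at 0. Without the 4 libraries over 1000 CPM of *Alb*, *Plin2* was called (0.60, adjusted p = 0.00390) and *Cidec* was not (adjusted p = 0.400). On the WD at 12 weeks *Cidea* had 32 counts over the 5 libraries, 28 of them in replicate 3, and 3 libraries were at 0. *Cidec* had 54 counts, 47 of them in replicate 3, and 2 libraries were at 0. Replicate 3 was the WD library with the most *Alb* (1107 CPM).

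Whether the diet effect differed between the time points was tested directly. By edgeR 0 of 10 members passed, with 2 at an unadjusted p under 0.05, and 0.283% of all genes passed. The *Plin2* difference was 0.32 on the log2 scale (95% interval -0.04 to 0.67, adjusted p = 0.424). Header naming was not balanced over the diets at either time point. Between SD ResKCs at 24 and 12 weeks no member was called by edgeR, with 0 at an unadjusted p under 0.05 and 0 called by DESeq2 or limma-voom (0.00% of all genes called by edgeR).

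Next, the 3 populations of WD-fed mice were compared at 24 weeks. These comparisons share samples, and the WD ResKCs also served in the diet comparison. Between CLEC4F- macs and ResKCs, *Plin2* and *Plin3* were higher in CLEC4F- macs and *Soat1* and *Pnpla2* lower, 4 of 10 members, where 33.0% of all genes were called (16.1% higher and 17.0% lower). All CLEC4F- macs lay above all ResKCs for *Plin2* and *Plin3* (7.18% of all genes) and below them for *Pnpla2* (8.81%).

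*Plin2* was at 789, 850 and 962 CPM in CLEC4F- macs, 1.51-fold above WD ResKCs (log2 fold change 0.59, SE 0.12, adjusted p = 0.000216). *Plin3* was at 79.8, 88.7 and 110 CPM, 1.30-fold above WD ResKCs (0.37, SE 0.07, adjusted p = 0.000159). Both coat genes had their highest group mean in CLEC4F- macs. *Pnpla2*, the triglyceride lipase, was at 82.9, 93.7 and 121 CPM in CLEC4F- macs and at 137, 160 and 230 CPM in WD ResKCs, without overlap, and fell by 0.77 on the log2 scale (SE 0.13, adjusted p = 1.003e-05). *Plin2*, *Plin3* and *Pnpla2* were called within each of the 2 namings alone, and without any single replicate of the groups compared. Immediate-early and heat-shock genes summed to 2172 to 10865 CPM in CLEC4F- macs, and 3 of 10 were higher than in ResKCs. Adjusted for them, the 3 members were still called. *Hilpda* was at 16.7, 30.5 and 33.6 CPM in CLEC4F- macs, within or below the range of WD ResKCs. It was not called (log2 fold change -0.32, adjusted p = 0.614), but adjusted for the same genes it was lower (-1.05, adjusted p = 0.000575).

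*Soat1*, which stores cholesterol as ester, was at 319, 345 and 393 CPM in CLEC4F- macs and at 392, 429 and 489 CPM in WD ResKCs, so the highest CLEC4F- mac library lay just above the lowest ResKC library. The log2 fold change was -0.32 (SE 0.08, adjusted p = 0.00157), and within the second naming alone it was -0.17 (adjusted p = 0.222). *Cidea* (log2 fold change 0.42, 95% interval -1.40 to 2.24) and *Cidec* (0.14, -1.59 to 1.86) were present in all CLEC4F- macs, at 0.624 to 5.77 CPM and 0.485 to 8.40 CPM, and their intervals were wide. *Dgat2* did not pass (0.13, adjusted p = 0.879), but with *Alb* as a covariate it was higher in CLEC4F- macs (0.81, adjusted p = 0.0222). The hepatocyte markers summed to 728 to 2844 CPM in CLEC4F- macs, and none of 10 was called. Of the lymphocyte markers, 2 of 5 passed the filter and both were higher in CLEC4F- macs (median log2 fold change 2.17), where the list summed to 6.87 to 74.7 CPM, against 3.91 to 6.66 CPM in WD ResKCs. Among endothelial markers 1 of 6 was higher and 1 lower, and among stellate cell markers 1 of 6 was higher. Their part in the member values was not tested.

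Between moKCs and ResKCs only *Soat1* was called, lower in moKCs, 1 of 10 members. Of all genes 2.99% were called and 2.00% were called lower. *Soat1* was at 322, 326, 382, 333 and 387 CPM in moKCs (replicates 1 to 5), all below the lowest ResKC library (2.17% of all genes). The log2 fold change was -0.31 (SE 0.08, adjusted p = 0.0265). The call was lost without ResKC replicate 1 or 2 or moKC replicate 1, 2 or 4 (adjusted p = 0.0572 to 0.0881), without the 4 libraries over 1000 CPM of *Alb* (0.0610) and within each naming (0.122 and 0.452).

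*Plin2* was at 349, 613, 622, 548 and 583 CPM in moKCs (log2 difference -0.07, 95% interval -0.33 to 0.19). Replicates 2 to 5 lay within the range of WD ResKCs and replicate 1 below it. Replicate 1 also had the highest summed levels among moKCs of hepatocyte markers (2902 CPM), endothelial markers (1465 CPM) and immediate-early and heat-shock genes (10587 CPM), and the part of these in its *Plin2* level was not tested. *Plin3* was at 72.0 to 79.1 CPM (0.12, -0.03 to 0.28), and *Pnpla2* at 120 to 161 CPM (-0.30, -0.57 to -0.04, adjusted p = 0.232). *Cidec* was present in all 5 moKC libraries (3.00 to 6.46 CPM) and *Cidea* in 4 of 5 (1.81 to 5.17 CPM, with replicate 5 at 0).

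Between CLEC4F- macs and moKCs, *Plin2* and *Plin3* were higher and *Pnpla2* lower in CLEC4F- macs, 3 of 10 members, where 16.4% of all genes were called (7.09% higher and 9.34% lower). The groups did not overlap for *Plin2* and *Plin3*, as for 3.96% of all genes in that direction. *Plin2* was 1.59-fold higher (log2 fold change 0.67, SE 0.13, adjusted p = 0.000263), and without moKC replicate 1 the log2 fold change was 0.54 (adjusted p = 0.00136). For *Plin3* the log2 fold change was 0.25 (SE 0.08, adjusted p = 0.0243). The *Plin3* call was lost without moKC replicate 1 (adjusted p = 0.0668) or CLEC4F- mac replicate 6 (0.0903), and under 5 of 13 other alternatives (largest adjusted p = 0.288, within the first naming). *Pnpla2* fell by 0.47 on the log2 scale (SE 0.13, adjusted p = 0.0110), with overlapping groups, and was not called within either naming (adjusted p = 0.0567 and 0.276). The *Soat1* difference was -0.01 (95% interval -0.17 to 0.16). *Dgat1*, the other triglyceride synthase, was at 11.7 to 15.7 CPM in moKCs and 12.9 to 22.0 CPM in CLEC4F- macs (0.40, adjusted p = 0.108), and was called without CLEC4F- mac replicate 4 (0.48, adjusted p = 0.0416). That library had the most Kupffer cell marker mRNA of its group, and the part of this in the member values was not tested.

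**Figure D3:**
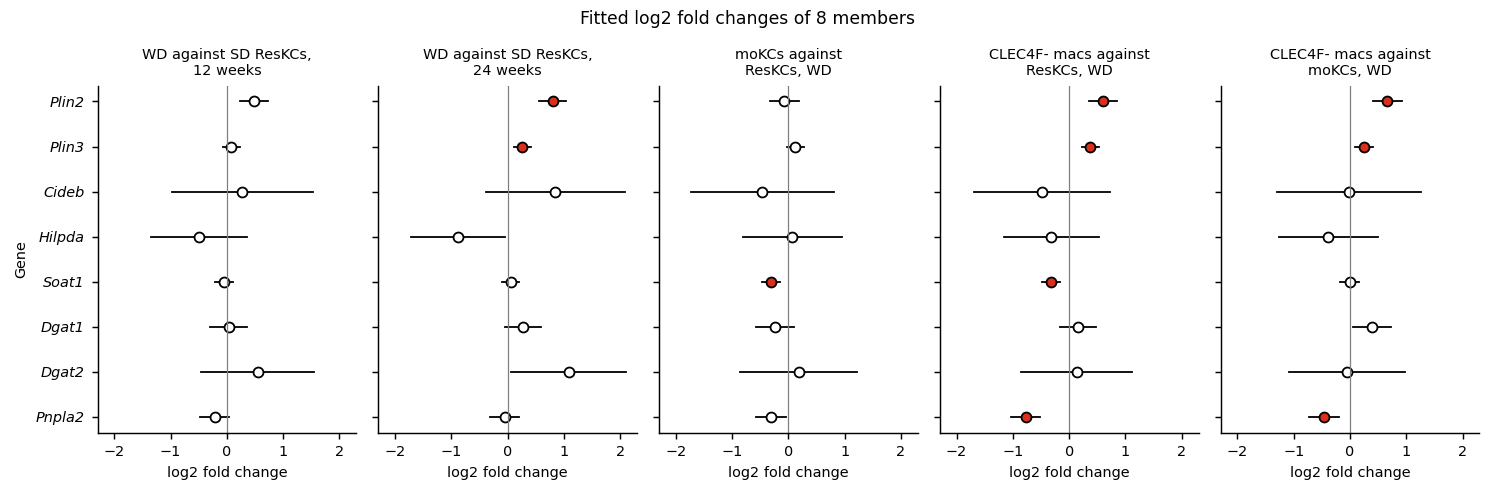
Fitted log2 fold changes (x axis) of 8 members (y axis) in 5 comparisons. Points are estimates, lines are 95% intervals, and filled red points have an adjusted p under 0.05; *Cidea* and *Cidec* are left out because SD libraries near 0 make their intervals far wider. *Plin2* (0.80) and *Plin3* (0.26) were called on the WD at 24 weeks, and both were called in CLEC4F- macs against either KC population.

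The relation to hepatocyte mRNA was examined for each member over the 35 libraries, as the correlation of its deviation from the group mean with that of *Alb* (log2 CPM), in 10 tests with two-sided permutation p-values adjusted over the 10. *Dgat2* followed *Alb* most closely (r = 0.86, rho = 0.85, adjusted p = 0.0001 for each, the smallest the permutations can give). The relation held within each naming (r = 0.82 in 22 libraries and 0.85 in 13) and without the 2 libraries farthest from the median of *Alb* (r = 0.81). *Cideb*, the liver CIDE gene, also followed *Alb* (r = 0.58, rho = 0.64, adjusted p = 0.00625 and 0.0013). It stayed so without the 2 farthest libraries (r = 0.49, adjusted p = 0.0462) but not in the second naming (r = 0.27, p = 0.333, against r = 0.59, p = 0.0127 in the first, permutation tests). *Cideb* had group means of 0.508 to 0.911 CPM, near the limit of detection, and was not called in any comparison. The relations of *Cidec* (r = 0.53, rho = 0.42, adjusted p = 0.0109 and 0.0432) and *Cidea* (r = 0.44, rho = 0.46, adjusted p = 0.0186 and 0.0224) were slightly smaller without the 2 farthest libraries and no longer passed adjustment (r = 0.43, adjusted p = 0.0750, and r = 0.37, adjusted p = 0.101). Neither passed within the first naming (*Cidec* r = 0.49, p = 0.0680, *Cidea* r = 0.37, p = 0.182) or the second (r = 0.53, p = 0.294, and r = 0.53, p = 0.0518, permutation tests). *Plin2* (r = -0.05, rho = -0.07), *Plin3* (0.25, 0.23), *Soat1* (-0.28, -0.35), *Pnpla2* (0.11, 0.08), *Dgat1* (-0.04, 0.00) and *Hilpda* (-0.09, -0.01) showed no relation that passed the test.

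*Hilpda* varied widely within groups. In SD ResKCs at 12 weeks it ran from 12.4 to 105 CPM. Its deviations followed those of the mean log2 CPM of the immediate-early and heat-shock list (10 genes; r = 0.87, rho = 0.86, n = 35, p = 1e-05 by permutation, the smallest possible), within the first naming (r = 0.88) and the second (r = 0.87), and without the 2 farthest libraries (r = 0.82). This relation was chosen after the values were seen.

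**Figure D4:**
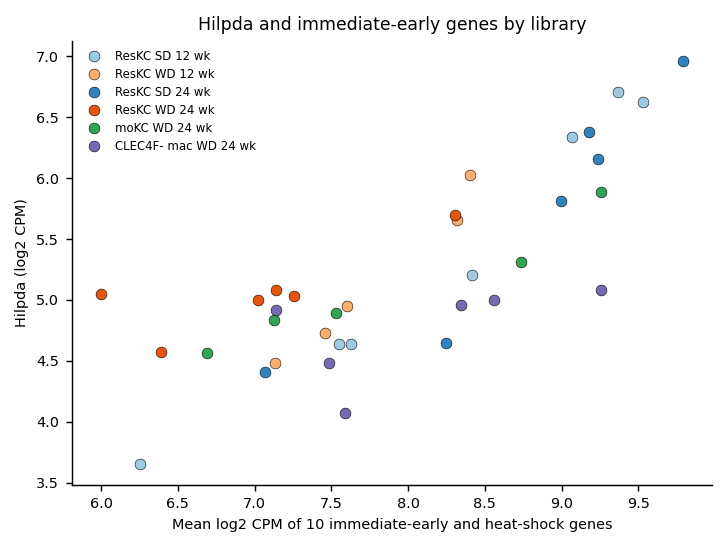
Log2 CPM of *Hilpda* (y axis) against the mean log2 CPM of the 10 listed immediate-early and heat-shock genes (x axis) in each of the 35 libraries, coloured by group. Libraries with higher immediate-early levels had higher *Hilpda* in all groups together (r = 0.87 for deviations from the group means).

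The other genes of the pathway were examined in 3 lists. Of 12 droplet coat and assembly genes in the files, 11 passed the filter. On the WD at 24 weeks 3 rose (*Plin4*, *Fitm1* and *Plin5*), none fell and 8 were not called (median log2 fold change 0.11). Over all genes 4.84% were called higher. *Plin5*, a perilipin of oxidative tissues, went from a mean of 0.818 to 4.67 CPM (log2 fold change 2.49, SE 0.78, adjusted p = 0.0404), *Fitm1*, a droplet-forming protein of the ER, from 0.512 to 3.69 CPM (2.83, SE 0.73, adjusted p = 0.0136), and *Plin4* from 0 to 0.498 CPM (adjusted p = 0.0196). These were low levels, and their relation to hepatocyte mRNA was not tested. In SD ResKCs at 12 weeks the highest library had 5.96 CPM of *Plin5* (group median 0.376) and 4.82 CPM of *Fitm1* (group median 0.422). This was replicate 7, which also had the most *Alb* (1098 CPM). *Plin4*, at 0 in all SD libraries, passed the filter through WD libraries alone. At 24 weeks *Fitm1* stayed under 1 CPM in all SD libraries (highest 0.904 CPM) and above it in all WD ResKC libraries (lowest 1.45 CPM). The calls of *Plin4* and *Fitm1* are therefore not independent of that filter. In CLEC4F- macs 2 of 11 were lower than in ResKCs, a share close to the 17.0% of all genes called lower. These were *Fitm2* (-0.48, SE 0.18, adjusted p = 0.0426) and *Tmem159* (-0.39, SE 0.14, adjusted p = 0.0332). None passed at 12 weeks, between moKCs and ResKCs, or between CLEC4F- macs and moKCs, by edgeR. In that order, these comparisons called 0.0373%, 2.99% and 16.4% of all genes.

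Of 19 triglyceride and cholesteryl ester synthesis genes, 17 passed the filter. On the WD at 24 weeks 2 rose and 15 were not called, beside 4.84% of all genes called higher. The 2 were *Gpat3*, which starts glycerolipid synthesis (5.74 to 13.2 CPM, log2 fold change 1.20, SE 0.35, adjusted p = 0.0277), and *Lpin1*, which forms diacylglycerol (24.2 to 35.4 CPM, 0.55, SE 0.16, adjusted p = 0.0277). In CLEC4F- macs against ResKCs 3 were higher and 5 lower, beside 16.1% and 17.0% of all genes. The largest were *Gpat3* (13.2 to 3.28 CPM, fell by 2.00, adjusted p = 4.098e-05), *Agpat4* (6.94 to 19.6 CPM, 1.50, adjusted p = 4.752e-06) and *Agpat2* (16.6 to 31.8 CPM, 0.94, adjusted p = 0.00412), and *Agpat3* was among those that fell (201 to 140 CPM, -0.53, adjusted p = 6.556e-05). In moKCs 1 of 17 (*Agpat4*, 0.85, adjusted p = 0.0473) was higher than in ResKCs, where 2.99% of all genes were called. Against moKCs, 4 were lower in CLEC4F- macs, beside 9.34% of all genes. They were led by *Gpat3* (-1.48, adjusted p = 0.00433), *Acsl5* (-0.53, adjusted p = 1.047e-05) and *Acsl4* (-0.37, adjusted p = 0.00832).

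Of 11 hydrolysis genes, 10 passed. *Mgll*, which cleaves monoglyceride, rose on the WD at 24 weeks (10.2 to 21.7 CPM, log2 fold change 1.08, SE 0.33, adjusted p = 0.0370), and 9 were not called. In that comparison 4.84% of all genes were called higher. *Lipa*, the lysosomal acid lipase, was at 1051 to 1372 CPM in group means. In CLEC4F- macs against ResKCs 2 of 10 were called, beside 33.0% of all genes. 1 rose, *Ddhd2* (0.70, SE 0.21, adjusted p = 0.00866), and 1 fell, *Lipa* (-0.29, SE 0.10, adjusted p = 0.0274). *Ddhd2* was also higher than in moKCs (0.89, SE 0.22, adjusted p = 0.00433).

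The genes whose log2 CPM was most like that of each member over the 35 libraries, by Pearson correlation, are given as a description, since all points share library, depth and group. For *Plin2* these were *Mfsd12* (r = 0.94), *Gla* (0.93) and *Cd9* (0.93), and for *Plin3* *Lgals1* (0.92), *Anxa2* (0.91) and *Tpm4* (0.90). *Cidea* and *Cidec* were most like each other (0.91). For *Dgat2* they were *Tdo2* (0.95), *Cdo1* (0.94) and *Apoa2* (0.94), and for *Hilpda* *Jund* (0.88), *Nfkbiz* (0.86) and *Ets2* (0.85). *Pnpla2* was most like *Tnfrsf1a* (0.93), *Itm2c* (0.91) and *Tmbim6* (0.89), and *Soat1* like *Gsr* (0.85), *Txnrd1* (0.85) and *Ctsb* (0.82). *Cideb* reached 0.75 (*Chdh*) and *Dgat1* 0.67 (*Dnajb14*).

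3 members overlap a gene on the other strand: *Cidea* overlaps *B430212C06Rik*, *Cideb* overlaps *Nop9* and *Soat1* overlaps *Gm37648*. The strand setting of the counting is not given in the sources used here, so reads of these pairs cannot be told apart.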

How the data were processed

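Bulk RNA-seq counts of 35 samples of sorted liver macs were used. The authors built TruSeq libraries, sequenced single reads on a NextSeq500 and, per the labels and methods, checked them with FastQC 0.11.9, mapped them to mm10 with HISAT2 2.2.0, processed them with SAMtools 1.10 and counted them per gene with featureCounts 2.0.0. Each deposited file holds raw counts by gene symbol for 1 library. The annotation, strand setting and treatment of multi-mapping reads are not given in the sources used here. Counts of 11568590 to 15163845 per sample limit the precision of genes at a few counts.

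A gene entered the tests when 5 or more samples exceeded 1 CPM (13421 of 54735 did). Libraries were scaled by TMM, all 35 samples were fitted together with a mean per group, and differences were tested by quasi-likelihood (edgeR 4.0.16, R 4.3.3). P-values were adjusted over all 13421 genes after Benjamini and Hochberg. A gene was called at an adjusted p under 0.05. The methods add an absolute log2 fold change over 1, which was an alternative, as were DESeq2 1.42.0, limma-voom (limma 3.58.1), library size alone, no filter, only the groups compared, a block for replicate number, covariates (hepatocyte markers, *Alb*, immediate-early and heat-shock genes, header naming) and leaving out each replicate. Leaving out libraries over 1000 CPM of *Alb* and single namings was added after seeing the data. Log2 CPM used a prior count of 2. SE is the absolute log2 fold change over the root of F. Correlations used 100000 permutations within groups. The tests were also run on simulated data. No pair of samples within a group was identical, and pairs across groups were not checked. Samples were not paired by replicate number, since in no comparison did every same-numbered pair correlate over 0.1. That rule cannot exclude pairing. Between CLEC4F- macs and WD ResKCs the 6 pairs had r of 0.0242 to 0.263, with 4 over 0.1. Whether these came from the same mice is not stated, and they were tested as independent samples. Gene positions and exon lengths are from GENCODE M21, upstream sequences from RefSeq.

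Named genes are the 10 members, up to 3 called genes with the largest log2 fold change per pathway list and comparison, the 3 genes most like each member, and markers. *Agpat3* was named in addition, outside this rule. The members, lists and tests were chosen with earlier results of these data known.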

Additional observations from a re-analysis of the deposited data

Results flagged for a closer look

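In 7 of 60 combinations of member and group, the highest or lowest library stood apart from the others of its group on the log2 scale by Dixon's ratio. For normally distributed values chance alone gives about 1 in 20 such cases per tested group. That rate does not apply to *Cidea* and *Cidec* in groups where most libraries were at 0, since any other value then stands apart. *Cidea* in SD ResKCs at 24 weeks was at 0 throughout and could not be flagged. No other kind of result was picked out, since the difference of the diet effects passed for no member.

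3 cases came from replicate 7 of the SD ResKCs at 12 weeks, which also had the most *Alb* of its group (1098 CPM). It had 446 CPM of *Plin2* (others 307 to 351), 0.851 CPM of *Cidea* (others 0) and 2.13 CPM of *Cidec* (others 0).

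The moKC library with the most *Alb* (replicate 1) had 349 CPM of *Plin2* (others 548 to 622). moKC replicate 5 had 0 CPM of *Cidea* (others 1.81 to 5.17). SD ResKC replicate 6 at 24 weeks had 0.361 CPM of *Cidec* (others 0 to 0.0789), which is 5 counts. CLEC4F- mac replicate 3 had 41.4 CPM of *Dgat2* (others 14.6 to 20.3) and the most *Alb* of its group (793 CPM).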

How the results depend on the processing

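No called result changed sign under any alternative. Of the log2 fold changes of single members under alternatives other than leaving out a replicate, 844 of 870 stayed on the same side of the threshold. For *Plin2* on the WD at 24 weeks, all 12 such alternatives and all 12 fits without 1 replicate kept the call (0.69 to 0.88 and 0.74 to 0.86 on the log2 scale), as did all for *Cidea*. For *Plin3* the call was lost in 6 of 12 and 5 of 12 fits for the diet at 24 weeks, and in 5 of 13 and 2 of 11 between CLEC4F- macs and moKCs. For *Pnpla2* in CLEC4F- macs against ResKCs all 13 and all 12 did (-0.89 to -0.65 and -0.84 to -0.67).

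The number of members called moved as follows. With an absolute log2 fold change over 1 it was 2 for the diet at 24 weeks and 0 in each of the 3 comparisons of populations, since no member called there had a larger change. Adjusted for immediate-early and heat-shock mRNA it was 2 for the diet at 24 weeks. For the diet at 12 weeks it was 1 (*Plin2*) without the libraries over 1000 CPM of *Alb* and with the replicate block (log2 fold change of *Plin2* 0.58, adjusted p = 0.0151). The replicate block changed no other call. Same-numbered samples did not deviate together in that comparison (r = -0.357 to 0.0241 over 5 pairs), so the block pairs samples that share only a number. Between moKCs and ResKCs it was 0 without a filter, with the compared groups alone, without the libraries over 1000 CPM of *Alb* and within either naming. Between CLEC4F- macs and moKCs it was 1 within either naming. For other cases the cause was not tested.

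Without 1 replicate, the number of members called was 3 to 4 for the diet at 24 weeks, 0 to 2 for the diet at 12 weeks, 4 in CLEC4F- macs against ResKCs, 0 to 1 in moKCs against ResKCs and 2 to 4 in CLEC4F- macs against moKCs. Without the 2 libraries farthest from the median of *Alb*, the relations of *Cidea* (r = 0.37) and *Cidec* (r = 0.43) no longer passed. At 3 counts per library (0.198 to 0.259 CPM), changes in *Cidea*, *Cideb* and *Cidec* are near the limit of these libraries. Over all genes, the diet comparison at 24 weeks called 1169, 469 when adjusted for immediate-early and heat-shock mRNA and 501 within the first naming. The diet comparison at 12 weeks called 5, from 0 (library size alone) to 86 (replicate block), moKCs against ResKCs 401, and 95 and 62 within the namings, CLEC4F- macs against ResKCs 4433, and 1669 within the second naming, and CLEC4F- macs against moKCs 2204, and 325 within the second naming. Fits within 1 naming hold fewer libraries. The difference of the diet effects called 38 genes, from 0 (first naming) to 187 (DESeq2), and SD ResKCs at 24 against 12 weeks 0, and 16 by DESeq2.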
